A study of Homo sapiens with 6 samples.

Results

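AGR3, LYZ, PIP and VTCN1 are 4 genes of secretory-type epithelium, taken from the 14884 genes named on the array and read on all 6 arrays of the series. AGR3, LYZ and VTCN1 were selected from the genes that the study ranked high in spheroids, and AGR3, LYZ and PIP were selected because they were lower with LA717 on these same arrays. The values of AGR3, LYZ and PIP that follow are for this reason a description and carry no test. VTCN1 was chosen by its place in the spheroid comparison, and its difference was tested. That comparison was also made against attached cells at 7 days, and the study does not say whether these arrays were used in it. Earlier results of these arrays were also known when VTCN1 was chosen, and it was not among the genes selected as lower here. The test is for this reason not independent of the choice. The array carried 5 probe sets for these genes, 2 of them for LYZ and 1 for each of the others, among 53617 in all.

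A549 cells, an established line of human lung adenocarcinoma, were cultured for 7 days in DMEM with 10% serum on attachment plates. The 3 LA717 samples had 0.03% (w/v) LA717 in the medium, an agar of low molecular weight used to hold cells apart in liquid medium, and the 3 control samples had Milli-Q water instead. On the LA717 samples 1 label names low-attachment plates, whereas their titles, descriptions and treatment protocol name attachment plates. The study's supplement calls the array data behind its table of attached cells against spheroids independent experiments, while the labels of these samples do not say whether replicates were separate cultures. P-values measure the spread between these samples, which may be technical. RNA was read as log2 intensity per probe set, and the medians of the arrays lay between 3.19 and 3.23. Any pair of arrays had a Pearson r of 0.9899 to 0.9913 over all probe sets, which are not independent replicates. KRT18, which marks epithelial cells, was at 11.05 ± 0.0076 with LA717 and 11.13 ± 0.093 in control on its brighter probe set (log2 intensity, SD, n = 3 each). A second KRT18 probe set was at 6.44 ± 0.036 with LA717 and 6.56 ± 0.021 in control. Its groups did not overlap and were lower with LA717, as for 5.73% of all probe sets. EPCAM, another epithelial marker, was at 7.14 ± 0.15 with LA717 and 7.23 ± 0.077 in control.

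Secretory epithelia of airways, salivary glands and breast send proteins through the endoplasmic reticulum to the cell surface or the lumen, and each of these genes encodes a product of that route. AGR3, like its paralog AGR2, is a protein of the disulfide isomerase family of the endoplasmic reticulum and is known in the airway from ciliated cells. LYZ encodes lysozyme, which cleaves bacterial cell walls and is made by serous gland cells and by myeloid cells. PIP, prolactin-induced protein, is secreted by apocrine, mammary, lacrimal and salivary glands under prolactin and androgens. VTCN1 encodes B7-H4, a membrane protein of the B7 family that restrains T cells and is found on several carcinomas.

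The promoters of PIP, AGR3 and VTCN1 are shown because PIP and AGR3 had groups that did not overlap and VTCN1 had the smallest difference. LYZ had no entry in the sequence table used. The sequences are the 250 bases before the annotated start from RefSeq (GRCh38.p14), with motif matches in capitals.

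PIP, chr7:143131827-143132076, + strand: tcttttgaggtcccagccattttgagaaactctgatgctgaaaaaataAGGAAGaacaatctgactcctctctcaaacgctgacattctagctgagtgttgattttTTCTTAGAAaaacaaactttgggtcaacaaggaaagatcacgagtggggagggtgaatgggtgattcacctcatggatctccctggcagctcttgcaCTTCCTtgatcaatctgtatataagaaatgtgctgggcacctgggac

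AGR3, chr7:16881984-16882233, - strand: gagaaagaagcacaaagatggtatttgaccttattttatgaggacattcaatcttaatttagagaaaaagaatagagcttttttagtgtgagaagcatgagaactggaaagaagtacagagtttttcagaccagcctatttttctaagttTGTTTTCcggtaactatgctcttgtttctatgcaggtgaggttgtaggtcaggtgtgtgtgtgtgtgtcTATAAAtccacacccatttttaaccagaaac

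VTCN1, chr1:117210928-117211177, - strand: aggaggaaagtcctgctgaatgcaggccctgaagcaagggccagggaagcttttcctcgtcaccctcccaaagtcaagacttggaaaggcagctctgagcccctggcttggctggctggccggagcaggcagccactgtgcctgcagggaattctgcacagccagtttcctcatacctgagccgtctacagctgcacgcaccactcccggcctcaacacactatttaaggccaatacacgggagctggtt

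The motifs were searched on both strands in all 35116 promoters of the table. The STAT palindrome TTCNNNGAA, the type of site bound by factors of the prolactin pathway, stood once in PIP at 144 bases before the start and was found in 6.57% of all promoters. The ETS core AGGAAG matched PIP at 202 and 47 bases before the start and 28.7% of all promoters. AGR3 held the TATA box TATAAA at 31 bases and the forkhead core TGTTTNC at 100 bases before the start, which 10.7% and 15.5% of all promoters held. The GATA core AGATAA, held by 9.17% of promoters, was in 0 of the 3 windows, and VTCN1 held 0 matches of the 5 motifs. Matches did not overlap each other. The GC content was 43.6% for PIP, 36.4% for AGR3 and 58.4% for VTCN1, against a median of 58% over all promoters. These matches describe letters in the window and do not show that a factor binds there.

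Setting LA717 beside control addresses whether attached cells respond to the agar itself. PIP had the largest difference of the 4 genes. It was at 4.89, 5.29 and 4.96 on the LA717 arrays and at 5.81, 6.01 and 5.51 on the control arrays (log2 intensity, replicates 1 to 3). Each LA717 value lay under each control value, with 0.22 between the highest LA717 and the lowest control array. The means were 5.05 ± 0.21 with LA717 and 5.78 ± 0.25 in control (SD, n = 3 each), a log2 difference of −0.73 (SE 0.16), or 1.66 times lower with LA717. The SE is that of limma, a linear model that shares its estimate of the spread across probe sets. With each array left out in turn the difference lay between −0.87 and −0.62. In bulk samples fewer cells that express a gene and less RNA per cell cannot be told apart.

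AGR3 was at 3.24, 3.11 and 2.43 with LA717 and at 3.70, 3.45 and 3.27 in control (log2 intensity, replicates 1 to 3). The groups were separated by only 0.037, and LA717 replicate 3 lay far below the other arrays. The means were 2.93 ± 0.43 with LA717 and 3.48 ± 0.22 in control (SD, n = 3 each), a log2 difference of −0.55 (SE 0.22). Without LA717 replicate 3 the difference was −0.30, and without LA717 replicate 1 it was −0.70. The residual SD of AGR3, 0.34, exceeded that of 97.7% of the probe sets that name a gene, so its spread between replicates was wide for this array. AGR3 was also dim, with only 27.9% of those probe sets below its mean, and a detection call for its signal was not used here.

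The brighter LYZ probe set was at 3.36, 3.26 and 3.13 with LA717 and at 3.63, 3.56 and 3.58 in control (log2 intensity, replicates 1 to 3). These values had the narrowest spread of the 5 probe sets, with 0.20 between the highest LA717 and the lowest control array. The means were 3.25 ± 0.12 with LA717 and 3.59 ± 0.036 in control (SD, n = 3 each), a log2 difference of −0.34 (SE 0.093). The second LYZ probe set did not share the separation. It was at 2.18, 2.02 and 1.69 with LA717 and at 1.91, 2.18 and 2.14 in control, so the groups overlapped. Its log2 difference was −0.11 (SE 0.15), and 0.025 without LA717 replicate 3. Both probe sets were dim, with 31.7% and 7.09% of the probe sets that name a gene below their means, and the lysozyme signal depended on which of them was read.

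VTCN1 had the smallest difference of the 4 genes. It was at 5.09, 4.91 and 4.86 with LA717 and at 5.05, 4.82 and 5.16 in control (log2 intensity, replicates 1 to 3), and the ranges overlapped. The log2 difference was −0.06 (SE 0.12) with a 95% interval from −0.33 to 0.22, which corresponds to 0.793 to 1.16 times the control level. The limma adjusted p over all probe sets was 0.979, and an exact two-sided permutation test gave p = 0.8, where 3 arrays against 3 allow no p below 0.1. The sign turned without control replicate 3, where the difference was 0.015. Of the 4 genes VTCN1 alone overlapped on its brightest probe set. The other 3 were selected as lower on these arrays and VTCN1 was not, so the choice of genes favoured this contrast. The VTCN1 difference was not tested against those of the other 3.

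**Figure D1:**
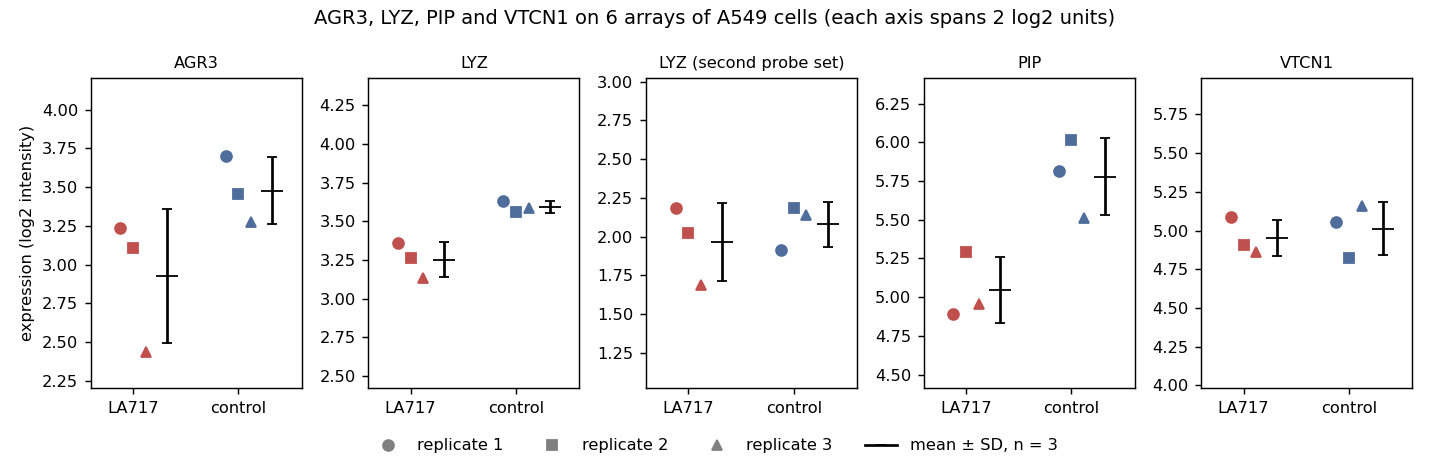
Log2 intensity of the 5 probe sets (one panel each, vertical axes of equal span) on the LA717 and control arrays, with symbols for replicates 1 to 3 and bars for the mean ± SD (n = 3). PIP, AGR3 and the brighter LYZ probe set lie lower on each LA717 array than on any control array, while the second LYZ probe set and VTCN1 overlap.

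In all, 3 of the 5 probe sets had groups that did not overlap and were lower with LA717. This was so for 5.73% of all 53617 probe sets, and the choice of AGR3, LYZ and PIP fixed this count. By limma 0% of all probe sets passed an adjusted p under 0.05 (0 of 53617), the lowest adjusted p being 0.485, with 2845 at an unadjusted p under 0.05. LA717 replicate 3 was the lowest LA717 array in 4 of the 5 probe sets, with PIP as the exception, while it was the lowest in 30.2% of all probe sets that name a gene. PIP differed in this from AGR3 and LYZ, since its LA717 values were lowest on replicate 1.

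**Figure D2:**
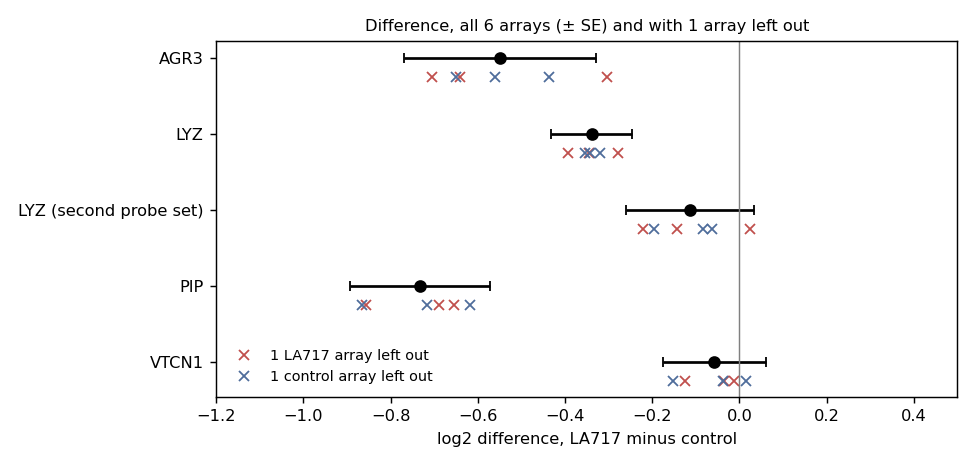
Log2 difference LA717 minus control for each probe set from all 6 arrays (black points, bars ± SE) and with 1 array left out (crosses, coloured by the group of that array). The differences of PIP lie between −0.87 and −0.62 with 1 array left out, and those of AGR3 between −0.70 and −0.30.

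Relatives of the 4 genes and other lists were read by each gene's brightest probe set. A listed gene is counted as measured where a probe set names it alone, and probe sets without a name may hold others. AGR2, the paralog of AGR3 and a folding factor for mucins, was at 7.85, 7.78 and 7.58 with LA717 and at 7.94, 7.74 and 7.62 in control (log2 intensity). Its log2 difference was −0.03 (SE 0.12), and the contrast with AGR3 was not tested. Across 11 measured thiol proteins of the endoplasmic reticulum 10 were lower and 1 higher, with a median log2 difference of −0.11, beside −0.0061 over all genes, of which 52.1% were lower. This median was −0.052 without control replicate 2, −0.060 without control replicate 1 and −0.069 without LA717 replicate 1. The largest in size was ERO1B, an oxidase that feeds disulfide formation, at −0.28 (SE 0.13). Next came ERP27 and TMX3 at −0.12 each and TMX4 at −0.11. The groups of TXNDC12, ERP44 and ERP29 did not overlap and were lower with LA717, which are 3 of 11, beside 6.66% of all genes by their brightest probe set; they are named after their values were seen. None of the 11 passed the test (lowest limma adjusted p 0.92).

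In the lysozyme family 6 of 9 listed genes were measured, 4 lower and 2 higher with a median log2 difference of −0.03, which was 0.016 without LA717 replicate 1. LYZL4, a sperm lysozyme relative, gave −0.13 (SE 0.12) and LYG1 0.0034, and 0 passed the test. In the B7 and butyrophilin family, relatives of VTCN1, 7 of 13 were lower and 6 higher, with a median of −0.01 that turned positive without LA717 replicate 2, LA717 replicate 3 or control replicate 1 (0.021, 0.019 and 0.015). ICOSLG, the ligand of the T cell receptor ICOS, was at 4.59 ± 0.13 with LA717 and 4.22 ± 0.25 in control (log2 intensity, SD, n = 3 each), a difference of 0.37 (SE 0.14) with groups that overlapped. CD274, which encodes PD-L1, gave 0.15 (SE 0.093), CD86 −0.25 (SE 0.16) and VSIR 0.09 (SE 0.16). Groups did not overlap for 0 of the 6 and 0 of the 13 genes, beside 6.66% lower and 4.86% higher over all genes.

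Other secreted proteins of airway, salivary and mammary epithelium were spread around 0. Of 57 listed genes 29 were measured, 15 lower and 14 higher, with a median log2 difference of −0.00027. CST4, the salivary cystatin S, was at 5.12, 4.43 and 4.77 with LA717 and at 5.18, 5.22 and 5.18 in control, a difference of −0.42 (SE 0.17). The control values of CST4 were close together and the LA717 values all lay below them. FCGBP, a mucus protein, gave −0.35 (SE 0.33), SLPI, the secretory leukocyte protease inhibitor, −0.28 (SE 0.15), and S100A9, a subunit of calprotectin, 0.27 (SE 0.12), each with overlapping groups. Groups did not overlap in 3 of the 29 on the low side (CST4, TFF2 and CLCA4) and in 2 on the high side (S100A8 and LACRT). This stood beside 6.66% and 4.86% of all genes, and apart from CST4 they are named after their values were seen. TFF2, CLCA4, S100A8 and LACRT were dim, with means over the 6 arrays of 3.15, 1.94, 2.57 and 2.40 in that order. None passed the test (lowest limma adjusted p 0.92).

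Transcription factors of secretory epithelium and the prolactin receptor were measured for 27 of 36 listed genes. In the mean 19 were lower and 8 higher, with a median log2 difference of −0.06. The groups of 7 did not overlap, all lower with LA717 (25.9% of the list, beside 6.66% of all genes), and 0 of 27 passed the test. EHF, an ETS factor of epithelia, was at 8.23, 8.20 and 8.18 with LA717 and at 8.61, 8.54 and 8.41 in control (log2 intensity). The LA717 values of EHF lay within 0.05 of each other and each was below the control values, with a log2 difference of −0.32 (SE 0.089, limma adjusted p 0.917).

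SOX9, a factor of ducts and progenitors, was at 8.28 ± 0.18 with LA717 and 8.63 ± 0.10 in control (log2 intensity, SD, n = 3 each), a difference of −0.35 (SE 0.12). TRPS1, a zinc finger repressor of the GATA type, was at 4.41 ± 0.086 with LA717 and 4.68 ± 0.13 in control. GATA3, a factor of the mammary luminal lineage, gave 5.99 ± 0.096 with LA717 and 6.23 ± 0.065 in control. These 4 genes had the greatest differences among the brighter genes of the list. The other 3 with groups apart were SPDEF, a factor of goblet cells, and KLF5 (−0.10 each) and PRLR, the prolactin receptor gene (−0.42, SE 0.15). PRLR was dim, at 2.03, 1.89 and 1.99 with LA717 and at 2.49, 2.07 and 2.64 in control. They are named here after their values were seen. FOXA1, a pioneer factor of secretory tissues, gave −0.20 (SE 0.10) with overlapping ranges. Of the 8 higher genes, ESR1 gave 0.27 (SE 0.12), GRHL3 0.20 (SE 0.21), GRHL1 0.19 (SE 0.16) and KLF4 0.17 (SE 0.099). The groups of each overlapped, ESR1 and GRHL1 were dim, and these genes too are named after their values were seen.

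**Figure D3:**
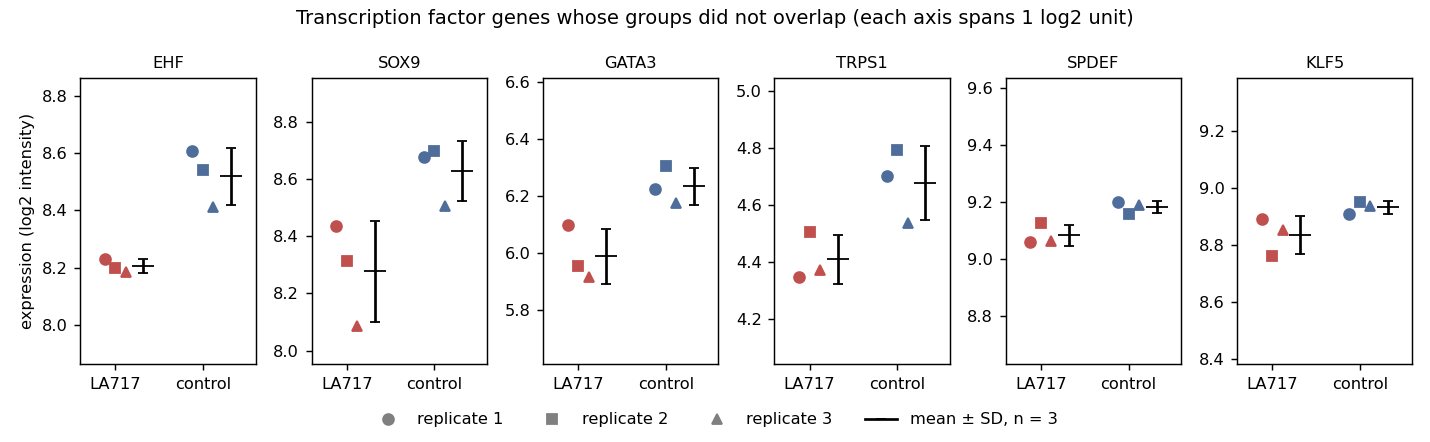
Log2 intensity of 6 transcription factor genes picked because their groups did not overlap (one panel each, vertical axes of equal span) on the LA717 and control arrays, with symbols for replicates 1 to 3 and bars for the mean ± SD (n = 3). EHF shows the tightest LA717 values, and SPDEF and KLF5 the smallest differences, −0.10 each.

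Genes of entry into the secretory route gave small differences. Of 21 measured genes of translocation and signal peptide removal 17 were lower and 4 higher, with a median log2 difference of −0.06. TRAM1 gave −0.19 (SE 0.11), SEC11C, a signal peptidase subunit, −0.18 (SE 0.11), and SEC61B and SEC62 of the translocon −0.08 each. Groups did not overlap in 2 of the 21, SEC61B and SEC61A1, both lower with LA717, beside 6.66% of all genes; SEC61A1 is named after its values were seen. Without LA717 replicate 1 the median was −0.012. None passed the test (lowest limma adjusted p 0.92).

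The study's list of genes ranked highest in spheroids holds 17 genes besides AGR3, LYZ and VTCN1. Of these 7 were named by a probe set in the annotation used, and the others were not analysed here, so the counts rest on that share of the list. Among the 7, 6 were lower and 1 higher, with a median log2 difference of −0.13, and 0 passed the test. The median was −0.24 without LA717 replicate 1 and −0.23 without control replicate 3. KRT20, an intermediate filament gene of intestinal and urothelial cells, was at 4.72, 4.70 and 4.28 with LA717 and at 5.25, 5.11 and 4.84 in control. Its groups were apart, with a difference of −0.50 (SE 0.16). This was 1 of the 7 genes, beside 6.66% of all genes with groups apart and lower. TAT, a tyrosine-degrading enzyme gene, gave −0.31 (SE 0.22), CEACAM6 −0.30 (SE 0.14) and CEACAM5 −0.13 (SE 0.31), with overlapping values. The list was ranked in another comparison by the same study and is not independent evidence of a direction.

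**Figure D4:**
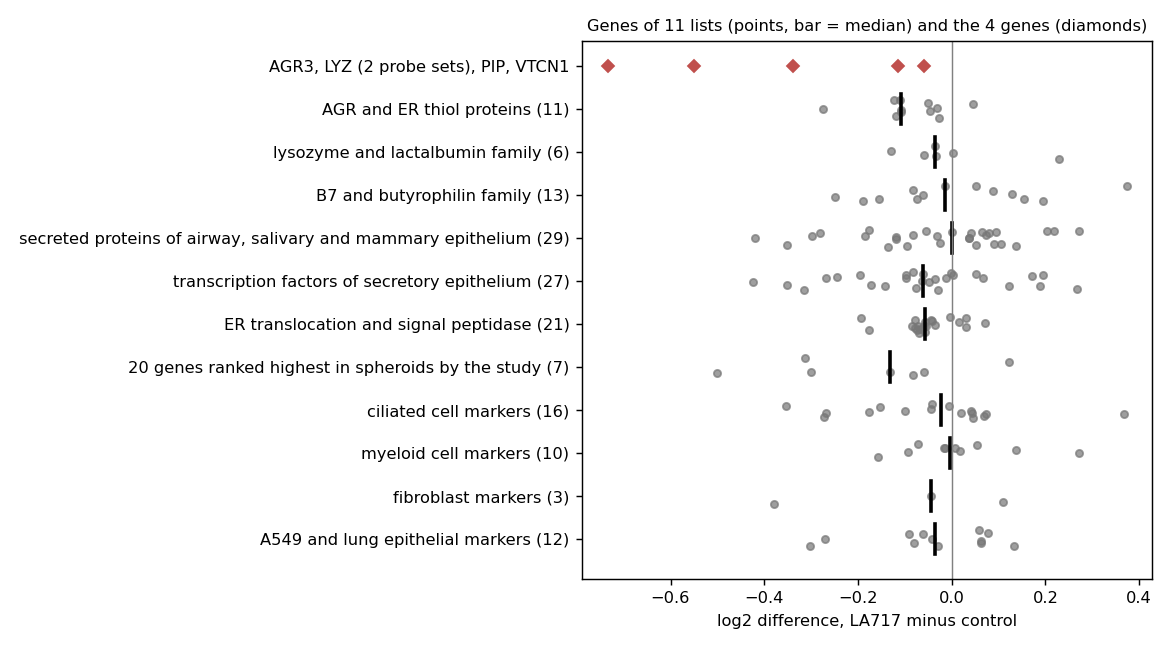
Log2 difference LA717 minus control of the 5 probe sets of AGR3, LYZ, PIP and VTCN1 (diamonds) and of the measured genes of 11 lists (points, with the number of genes in brackets and a bar at the median). PIP at −0.73 and AGR3 at −0.55 lie beyond each gene of the lists, whose lowest value is −0.50 for KRT20. PIP and AGR3 were selected as lower on these same arrays, which favours such a place, so it is a description only. List medians lie between −0.13 and −0.00027.

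Markers of the cell types that AGR3 and LYZ are otherwise known from were read beside them. Ciliated cell markers were measured for 16 of 24 genes, 9 lower and 7 higher, with a median log2 difference of −0.02. Their mean level ran from 3.78 to 3.86 over the LA717 arrays and from 3.82 to 3.91 over the control arrays. FOXJ1, which directs the making of motile cilia, was at 4.44 ± 0.20 with LA717 and 4.71 ± 0.32 in control (log2 intensity, SD, n = 3 each). Groups did not overlap in 3 of the 16, RSPH4A, CFAP43 and CCDC39, of which 2 were lower and 1 higher. This stood beside 6.66% lower and 4.86% higher over all genes, and the 3 are named after their values were seen. All 3 were dim, with means over the 6 arrays of 3.01, 2.57 and 1.87 in that order. The median difference of the ciliated cell markers was 0.0026 without control replicate 3. TPPP3 gave −0.35 (SE 0.17), TEKT1 0.37 (SE 0.20) and CCDC78 −0.18 (SE 0.11), with overlapping groups. Myeloid markers were measured for 10 of 23 genes, 5 lower and 5 higher, with mean levels from 4.39 to 4.57 with LA717 and from 4.40 to 4.46 in control. CSF1R, a defining receptor of macrophages, was at 3.63 ± 0.099 with LA717 and 3.65 ± 0.12 in control, and CD68 at 8.70 ± 0.14 with LA717 and 8.68 ± 0.14 in control. S100A9 had the largest difference of these markers, 0.27 (SE 0.12), and CD14 gave −0.09, TYROBP −0.07 and SPI1 0.0080. S100A8, at 0.14 (SE 0.088), was the 1 myeloid marker whose groups did not overlap, higher with LA717, beside 4.86% of all genes. It was dim, with a mean of 2.57 over the 6 arrays. Of 10 fibroblast markers 3 were measured, LUM at −0.38 (SE 0.15), DCN at −0.05 (SE 0.11) and THY1 at 0.11 (SE 0.17), with overlapping groups. DCN was dim, with a mean of 1.68 over the 6 arrays. Of 25 markers of A549 cells and lung epithelium 12 were measured, 7 lower and 5 higher, with NAPSA at −0.27, EPCAM at −0.09, KRT18 at −0.08 and SFTPD at 0.13. Groups did not overlap in 1 of the 12, SFTPB at 0.06 (SE 0.081), higher with LA717, beside 4.86% of all genes. SFTPB is named after its values were seen. The part of other cell types in the AGR3 and LYZ values was not tested.

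The genes whose pattern over the 6 arrays was most like each of the 4 were found by Pearson correlation over 2457 or 2458 probe sets with a log2 range of at least 0.5. For AGR3 they were HSPA2, a chaperone gene of the HSP70 family (r = 0.98), KHDC1L (0.98) and RILPL2 (0.97). All 3 had their lowest value on LA717 replicate 3, as AGR3 did, and r stayed at 0.97 for each after the group means were removed. For LYZ they were the homeobox gene TPRX1 (0.99), NEURL2 (0.97) and PRAMEF10 (0.97), with 0.91, 0.77 and 0.87 after the group means were removed. For PIP they were RELT, a receptor of the TNF receptor family (0.97), ELOVL7, a fatty acid elongase (0.96), and the cathepsin gene CTSO (0.96), with 0.88, 0.89 and 0.87 after removal. For VTCN1 they were the non-coding genes EPN2-IT1, NACA4P and GNG12-AS1 (0.96 each). The lists of the 4 genes shared 0 names. High correlations are frequent among many probe sets read on 6 arrays, so these values only describe likeness.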

How the data were processed

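Total RNA of 6 A549 samples was analysed on GeneChip Human Gene 2.0 ST arrays per the study's methods. The authors deposited log2 values, 1 for each probe set on each array. The submitters' processing notes name Affymetrix Expression Console, and the version, summarisation method and genome build were not given in the sources used here. Deposited log2 values entered the fits without a pseudocount. Probe sets were named from the platform annotation (16098 name 1 gene, 0 several, 37519 none); all 16098 matched RefSeq (GRCh38.p14) by Entrez identifier.

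The difference LA717 minus control was fitted for all 53617 probe sets and 6 arrays with limma 3.58.1 in R 4.3.3 (lmFit, eBayes, two-sided, Benjamini-Hochberg, threshold 0.05). A check on simulated data required that changes of 3 log2 units be found. It set no such requirement for smaller changes, which include the differences of all 4 genes. A gene was represented by its brightest probe set. The 4 genes, the 11 lists and the tests were chosen with earlier results of these data known. Named were all probe sets of the 4 genes, up to 4 genes per list with the greatest difference among those at or above the median mean (3.19), paralogs, defining cell type markers and, per gene, the 3 most alike in pattern. Alternatives were other variance models, array weights, a replicate block, other normalizations, filters, each array left out, and other probe sets. Figures were drawn with matplotlib 3.10.9.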

Additional observations from a re-analysis of the deposited data

How the results depend on the processing

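With limma 0 probe sets passed an adjusted p under 0.05 in each of the 14 alternatives tried, and 2845 had an unadjusted p under 0.05 in the fit as reported. PIP, AGR3 and the brighter LYZ probe set had a negative difference under each alternative; with groups already apart by choice, the sign cannot turn when 1 array is dropped. LYZ gave −0.23 as the mean of both probe sets and −0.11 on the second one. Leaving out arrays in turn gave VTCN1 values of −0.15 to 0.015, positive only without control replicate 3. The second LYZ probe set had no fit without dim probe sets. Of 110 list medians under alternatives, 12 moved by more than 1 SD of the list score. With each array left out the median ran from −0.069 to 0.021 for the B7 family (0.037 without dim probe sets), from −0.062 to 0.025 for secreted proteins, from −0.088 to −0.012 for translocation, from −0.24 to −0.14 for the genes highest in spheroids and from −0.080 to 0.0026 for ciliated cell markers. Medians of the lysozyme family, myeloid, fibroblast and A549 markers also took both signs. For each of these, the cause was not tested. Same-numbered arrays deviated together only weakly (r of 0.024, 0.015 and 0.033), and the fit as reported used no replicate block. As a hint from the data, every array was closest to the one of its number. With the replicate block 0 probe sets passed, and the differences were those of the fit without it, but some SEs changed. The SE went from 0.22 to 0.13 for AGR3 and from 0.16 to 0.11 for PIP. It changed little for the brighter LYZ probe set (0.093 and 0.095) and VTCN1 (0.118 and 0.115). For the second LYZ probe set it was 0.146 and 0.157. AGR3 and both LYZ probe sets were dim beside the probe sets that name a gene, and whether this affected their values was not tested. The residual SD was 0.34 for AGR3 and 0.085 for the brighter LYZ probe set.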

Other observations

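AGR3 and several secreted proteins had a like order of arrays in both groups. AGR3 was highest on replicate 1 and lowest on replicate 3 with LA717 and in control, and so were 4 of the 29 measured genes of the secreted protein list, AGR2, FCGBP, LCN2 and CST3. This order was found in 3.25% of all genes. FCGBP was at 7.14, 6.37 and 5.83 with LA717 and at 7.06, 6.97 and 6.36 in control (log2 intensity, replicates 1 to 3). The order was noticed in these values and was not tested, and the labels do not say what the replicate numbers share.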
